A study of Homo sapiens with 31 samples.

Results

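C/D box small nucleolar RNAs (snoRNAs) were described here in Caco-2 cells grown for 21 days either in a perfused gut-on-chip or on static Transwell inserts. The members were the rows of the array's value table whose annotation named exactly 1 gene with a symbol starting SNORD, and the brightest row by the mean of all 31 arrays was kept for each symbol. This gave 157 members of the 22395 genes tested. The members were thus chosen by name, and the row of each was selected on its mean signal over all arrays, so their levels against the array medians are a description, given below with no test.

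C/D box snoRNAs are short nuclear RNAs that pair with a target RNA and guide the methyltransferase fibrillarin to methylate a ribose there. Most target ribosomal RNA and some target the spliceosomal U6 RNA, while a few, such as the U3, U14 and U13 RNAs, act in cleavage or acetylation of ribosomal RNA precursors. In human cells nearly all are cut out of introns of a host gene, so a snoRNA and the exons of its host come from the same transcript. The large SNORD113 and SNORD114 family lies in the imprinted DLK1-DIO3 region, and the SNORD115 and SNORD116 families lie in the imprinted SNURF-SNRPN region, whose loss on the paternal chromosome causes Prader-Willi syndrome.

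Total RNA was measured on an Affymetrix whole-transcript array in 8 groups. Chip and Transwell cells were exposed for 6 h to TiO2 nanomaterial (100 µg/mL in the chip, 50 µg/mL on Transwell), to a TiO2-control medium without metal, to ZnO nanomaterial (80 µg/mL in the chip, 10 µg/mL on Transwell) or to a ZnO-control medium without metal. The labels state that the concentrations were set by modelling to give the same deposited dose, that chip cells had a flow of 100 µL/h until the exposure and that flow was stopped during it. Each group had 4 arrays except Transwell TiO2, which had 3. Caco-2 is an established line from a colorectal tumour that forms an enterocyte-like layer, and here it was used at passage 29 to 45 in every group. Nothing in the labels says that replicates came from separate cultures, so p-values measure the spread between these samples, which may be technical. All values are log2 signals, and differences are differences in log2 signal.

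The array medians lay between 3.24 and 3.33. All 7 markers of intestinal epithelium, among them VIL1 and CDH17, were above the median on every array. In chip against Transwell control cells KRT20 and KRT18 were higher, by 0.96 and 0.56, and VIL1, CDX2 and CDH17 lower, by differences of -0.75, -0.74 and -0.20, while EPCAM and CDH1 were not called. Of 8 measured markers of other cell types, COL1A2, DCN, PTPRC and CD3E were below the median on every array, CD68, LUM and COL1A1 above it on every array, and VWF above it on 10. In chip against Transwell control cells CD68 was higher by 0.64, LUM and CD3E were lower by differences of -0.98 and -0.35, and the other 5 were not called. Their part in the results below was not tested. Among the chip TiO2 and chip TiO2-control arrays, replicate 4 of each group resembled the other group more than its own. Over all genes, the mean correlation of the centred values was -0.28 with its own group and -0.07 with the other group for chip TiO2 replicate 4, and -0.22 and -0.10 for chip TiO2-control replicate 4. The other 6 arrays lay closer to their own group, and results from these groups are also given without both replicates 4.

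No sequence of a C/D box snoRNA was used here. The promoters of the hosts that the results turn on are shown instead, each as RefSeq gives it on GRCh38.p14, with 250 bases before and 50 bases after the gene's start. They are SNHG14, the long non-coding host of the SNORD116 copies that moved together, HSPA8, host of the member with the largest rise, and ZFAS1, a host that rose while 2 of its 3 measured snoRNAs fell over the control media. Capitals mark 3 motifs searched on both strands, the heat shock element GAANNTTC, the NRF1 motif (GCGCA, then any base, then GCGC) and the TATA letters TATAA. SNHG14 is at chr15:24823358-24823657 on the plus strand, HSPA8 at chr11:123062087-123062386 on the minus strand, and ZFAS1 at chr20:49278392-49278691 on the plus strand.
SNHG14: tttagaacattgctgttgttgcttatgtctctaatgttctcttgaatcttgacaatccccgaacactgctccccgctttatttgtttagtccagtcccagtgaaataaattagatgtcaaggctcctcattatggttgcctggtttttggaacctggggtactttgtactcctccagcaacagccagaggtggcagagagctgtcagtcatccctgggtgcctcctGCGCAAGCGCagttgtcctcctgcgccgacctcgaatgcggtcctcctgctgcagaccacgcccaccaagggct
HSPA8: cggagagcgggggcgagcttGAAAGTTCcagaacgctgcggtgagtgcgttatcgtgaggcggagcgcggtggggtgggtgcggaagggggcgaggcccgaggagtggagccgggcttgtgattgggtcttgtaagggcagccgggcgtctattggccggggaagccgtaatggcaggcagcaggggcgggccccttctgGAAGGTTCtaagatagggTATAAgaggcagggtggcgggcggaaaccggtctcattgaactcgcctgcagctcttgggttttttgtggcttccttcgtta
ZFAS1: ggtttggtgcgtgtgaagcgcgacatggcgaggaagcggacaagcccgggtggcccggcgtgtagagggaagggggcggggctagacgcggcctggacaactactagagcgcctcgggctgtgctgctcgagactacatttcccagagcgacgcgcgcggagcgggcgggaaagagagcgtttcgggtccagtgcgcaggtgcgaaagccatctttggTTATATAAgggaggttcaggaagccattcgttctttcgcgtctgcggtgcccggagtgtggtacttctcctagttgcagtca

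HSPA8, a constitutive heat shock protein, had 2 matches to the heat shock element and 1 to TATAA. SNHG14 had 1 match to the NRF1 motif, and ZFAS1 had 2 overlapping matches to TATAA, 1 on each strand. Of 35116 promoter windows in the RefSeq table, 6.77% held the heat shock element, 5.78% the NRF1 motif and 20.4% TATAA. A match is a description of the letters and not of binding.

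Members differed far more in level from each other than between groups. Over the mean of all arrays, 79 of 157 members lay above 3.285, the median of the array medians. In every one of the 8 groups 73 members lay above the medians of the group's arrays, in none of them 74, and in some of them 10. The same count for all 8 groups was 13150 of the 22395 genes. On single arrays between 70 and 85 members lay above that array's median. By group mean the count was 80 in chip TiO2 and 77 in Transwell TiO2 cells, 77 in chip and 78 in Transwell TiO2-control cells, 81 in chip ZnO and 81 in Transwell ZnO cells, and 77 in chip and 80 in Transwell ZnO-control cells. SNORD115-31, at a mean of 3.367, was the member just above the line and SNORD115-24, at 3.282, the one just below it.

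**Figure D1:**
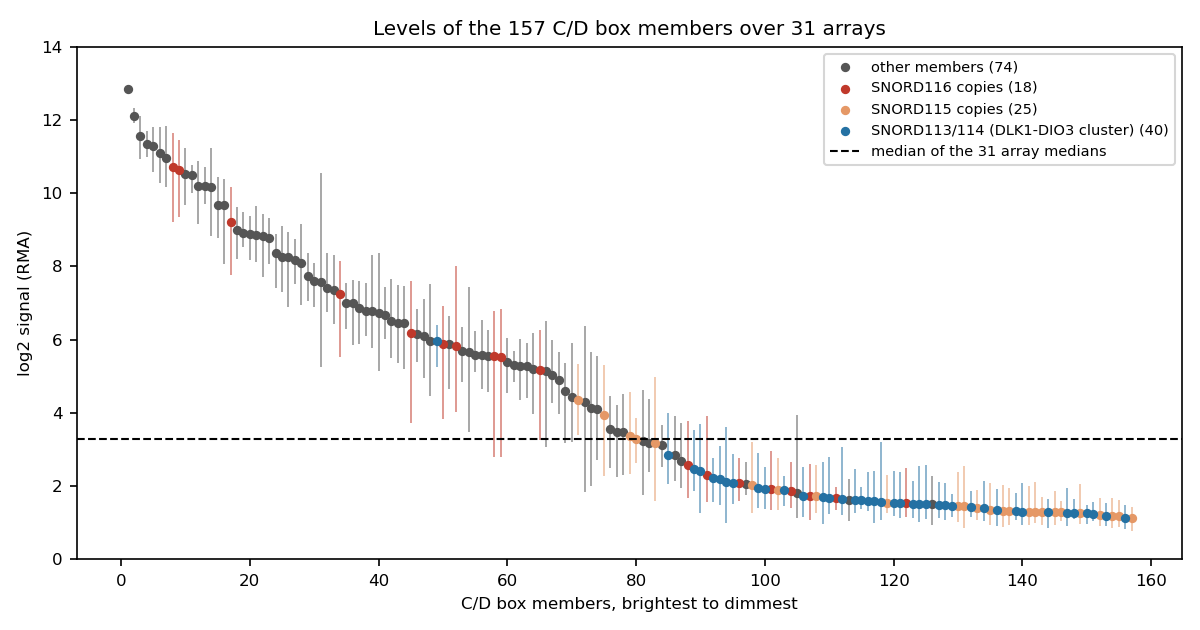
Mean log2 signal of each of the 157 members over 31 arrays (points), with its lowest and highest array (lines), ordered by mean, with the median of the array medians dashed at 3.285. The SNORD113 and SNORD114 members and most SNORD115 copies sit at the dim end, while 10 of 18 SNORD116 copies and 65 of the 74 members outside the imprinted clusters lie above the dashed line.

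SNORD13, the U13 RNA that guides an acetylation of the small-subunit ribosomal RNA, was the brightest member, at a mean of 12.84 and between 12.73 and 12.97 on all 31 arrays. SNORD89 followed at 12.12. SNORD46 had 11.57, SNORD105B had 11.35, and SNORD15B, in an intron of the ribosomal protein gene RPS3, had 11.30. The next were SNORD8 at 11.11, SNORD71 at 10.96, SNORD116-24 at 10.73, SNORD116-15 at 10.64, SNORD69 at 10.54, SNORD32B at 10.50 and SNORD42A at 10.21. Levels of different members are not set in an order of abundance by these values, since each row has its own probes. SNORD117 and SNORD32B were the members with several rows, 8 and 7, of which 7 and 6 held identical values.

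The imprinted families split. Of 40 SNORD113 and SNORD114 members 1 was above the array medians in all 8 groups, SNORD114-27 at a mean of 5.96, and 39 were above them in no group. The span that holds them in RefSeq is MEG8, a long non-coding RNA, which also lay low, at 2.20 ± 0.08 in chip and 2.00 ± 0.05 in Transwell TiO2-control cells (SD, n = 4 each). Of 25 SNORD115 copies 2 were above the medians in all groups and 20 in none. Of 18 SNORD116 copies 10 were above them in all groups and 8 in none, with means between 1.53 and 10.73. The copies of SNORD115 and of SNORD116 are close in sequence, and whether a row that names 1 copy also binds others was not tested, so single copies are uncertain.

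The effect of the culture system was taken first as the mean of the chip minus Transwell differences in both control media (8 control arrays for each system). In that comparison 10 members were higher and 39 lower in chip than in Transwell cells at an adjusted p below 0.05, or 31.2% of the members, against 33.5% of all genes. The total was therefore near the background. By direction, 24.8% of the members were lower against 18.9% of genes, and 6.37% were higher against 14.6% of genes. Of the 79 members above the array medians 9 were higher and 33 lower, or 53.2% in all, against 48.9% of the 14310 genes above them. The median difference was -0.28 for these 79 members, -0.04 for all 157 and 0.00 for all genes. Shares by direction and the median difference of the 14310 genes above the array medians are not given here. The excess of lower over higher members is therefore not matched for level. The median length in RefSeq was 94 bases for the lower members, 79 for the higher members and 77 for those not called. The median levels of these sets were 7.25, 6.45 and 1.93, and length, level and family cannot be told apart here. Of the 49 called members 39 passed the threshold whichever of the 16 control arrays was left out.

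In the TiO2-control medium alone 7 members were higher and 21 lower (22.9% of all genes were called, 9.42% higher and 13.5% lower). In the ZnO-control medium 4 were higher and 38 lower (27.2% of genes, 12.3% higher and 14.9% lower). After TiO2, 9 were higher and 1 lower (18.2% of genes, 7.92% higher and 10.2% lower), and after ZnO 4 were higher and 17 lower (29.8% of genes, 13.3% higher and 16.5% lower). All 21 members lower in the TiO2-control medium were also lower in the ZnO-control medium, where they were 55.3% of those called lower. These comparisons used separate arrays but shared 1 estimate of each gene's spread, so they are not independent tests. The matching overlap over all genes is not given here. The 10 members lower in 3 of the 4 media were SNORD90, SNORD121A, SNORD69, SNORD103C and 6 SNORD116 copies, and none was lower in all 4. Over the 4 media, SNORD14E and SNORD53 were the members called higher in each, and for both some of these calls were lost when 1 array was left out. Leaving out both replicates 4 gave 11 higher and 40 lower members over the control media, and 7 higher and 2 lower after TiO2.

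**Figure D2:**
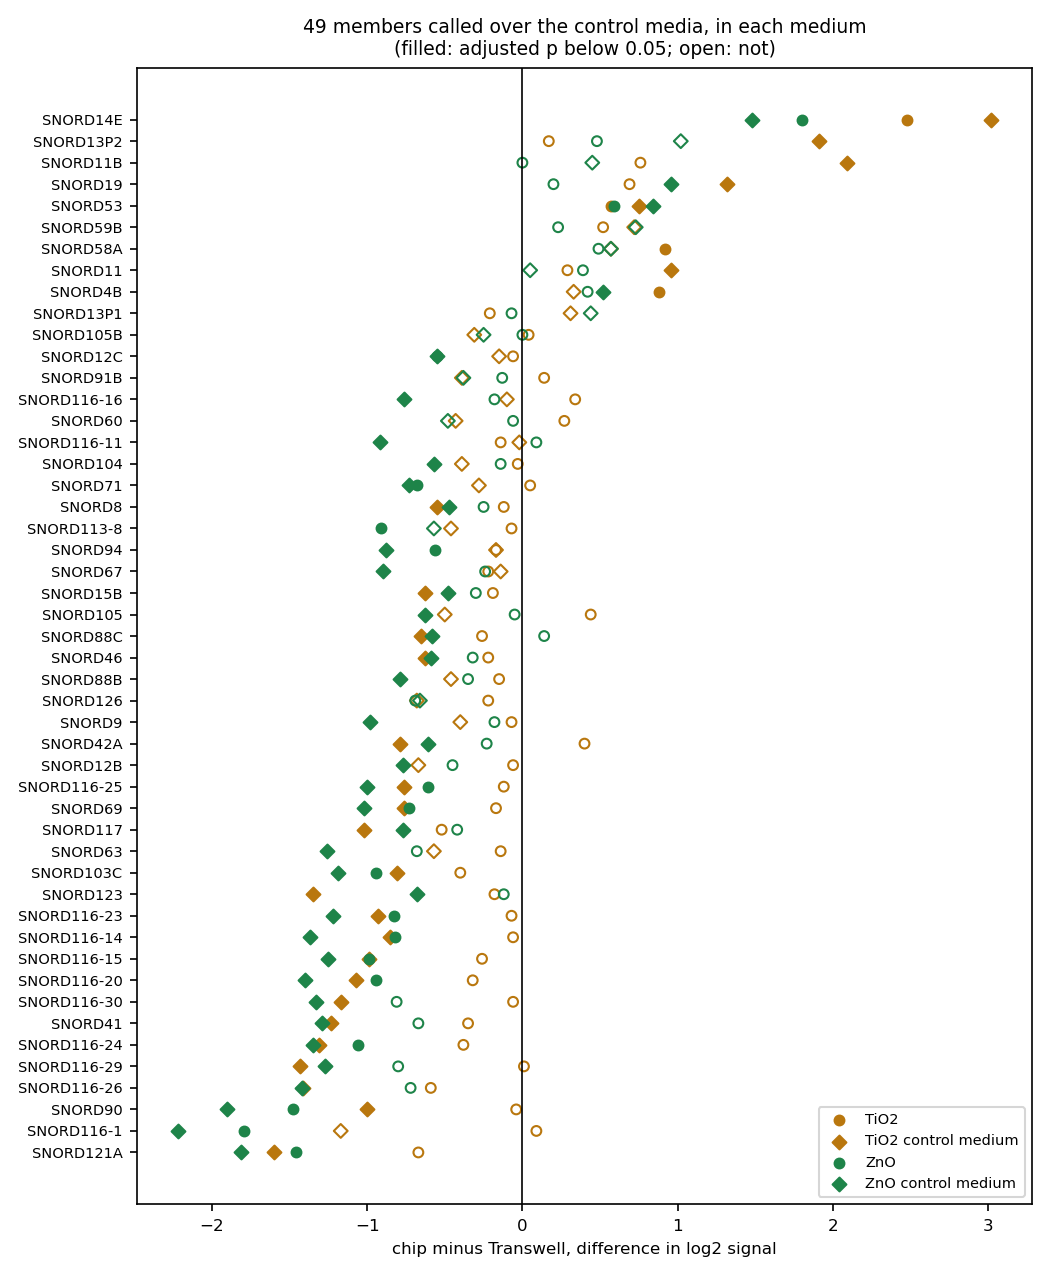
Difference in log2 signal, chip minus Transwell, for the 49 members called over the control media (rows), in TiO2 (brown circles), TiO2-control medium (brown diamonds), ZnO (green circles) and ZnO-control medium (green diamonds), with filled symbols for an adjusted p below 0.05. Most brown circles, the TiO2-exposed comparison, lie nearer to 0 than the other symbols for the SNORD116 copies, while SNORD14E at the top lies between 1.48 and 3.02 in all 4 media.

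SNORD14E is a U14 RNA, a family needed for maturation of the small-subunit ribosomal RNA, and it lies inside HSPA8. It had 8.55, 9.60, 9.30 and 8.34 in chip TiO2-control cells, against 6.32, 6.45, 5.69 and 5.24 in Transwell TiO2-control cells. In the ZnO-control medium it had 7.0, 10.28, 6.77 and 8.16 in the chip, against 6.33, 6.51, 6.69 and 6.76 on Transwell. Every chip array was above every Transwell array of the same medium, although in the ZnO-control medium the nearest arrays, at 6.77 and 6.76, almost met. The difference over both control media was 2.25 (SE 0.37), 4.75-fold higher, with an adjusted p of 1.25e-05. After TiO2 it was 2.48 (SE 0.56) and after ZnO 1.80 (SE 0.52), with adjusted p-values of 0.00188 and 0.00785. In the ZnO-control medium the call was lost without any 1 of 5 arrays (chip replicates 2 or 4, Transwell replicates 1, 2 or 3), with differences down to 0.74, and after ZnO it was lost without chip ZnO replicate 1, at a difference of 1.24. HSPA8 itself had no row that named it alone.

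SNORD53, in an intron of the ribosome biogenesis gene WDR43, was higher by 0.80 (SE 0.13, adjusted p = 7.91e-06), 1.74-fold. It had 8.15, 7.79, 7.79 and 7.74 in chip and 6.88, 6.92, 7.34 and 7.31 in Transwell TiO2-control cells. ZnO-control cells had 7.66, 8.14, 7.72 and 7.76 in the chip, against 7.17, 6.75, 6.98 and 7.02 on Transwell. The systems did not overlap in either control medium. After ZnO the call was lost without chip ZnO replicate 1, at a difference of 0.36, and after TiO2 without any of 6 of the 7 arrays, at differences down to 0.51. SNORD92, in the same host, differed by -0.03 (SE 0.23, adjusted p = 0.951), and WDR43 by 0.00 (SE 0.09, adjusted p = 0.99).

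The other rises were smaller or rested on fewer media. SNORD13P2, a pseudogene copy of SNORD13 inside FOXK1, was higher by 1.46 (SE 0.28, adjusted p = 9.36e-05) and SNORD13P1, a dim pseudogene copy, by 0.38 (SE 0.14), whereas SNORD13 itself differed by -0.03 (SE 0.08) in the TiO2-control medium and by 0.00 (SE 0.08) in the ZnO-control medium. SNORD11B and SNORD11, both in introns of NOP58, were higher by 1.27 (SE 0.42) and 0.51 (SE 0.16), with adjusted p-values of 0.0192 and 0.0134. SNORD19 was higher by 1.14 (SE 0.25), SNORD59B by 0.72 (SE 0.27), SNORD58A by 0.57 (SE 0.18) and SNORD4B by 0.42 (SE 0.14). The call for SNORD11B was lost without Transwell TiO2-control replicate 3 or chip ZnO-control replicate 2, and that for SNORD4B without Transwell TiO2-control replicate 4. The calls for SNORD59B and SNORD13P1 were lost without any of 9 and 7 of the 16 control arrays.

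Many of the falls were in the SNORD116 copies. Of 18 copies 12 were lower in chip than in Transwell cells over the control media (18.9% of all genes were lower) and none was higher, and their median difference was -0.98. In the TiO2-control medium 9 were lower, in the ZnO-control medium 12, after ZnO 7, and after TiO2 none was lower and 1, SNORD116-21, was higher. The medians in those media were -0.84, -1.11, -0.72 and -0.06. Of all genes 13.5%, 14.9%, 16.5% and 10.2% were lower in the same media, and 7.92% were higher after TiO2. Over the same control media 0 of 25 SNORD115 copies were called by limma (2 at an unadjusted p below 0.05) and 1 of 40 SNORD113 and SNORD114 members, SNORD113-8, was lower. The 12 lower copies included SNORD116-23, SNORD116-25, SNORD116-11 and SNORD116-16, whose levels of 1.26 to 3.05 in both systems were below the array medians. The calls for SNORD116-11, SNORD116-16 and SNORD113-8 were lost without any of 8, 4 and 8 of the 16 control arrays.

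SNORD116-24, the brightest copy, had 9.21, 10.34, 10.24 and 9.77 in chip TiO2-control cells, against 11.17, 11.31, 11.21 and 11.10 in Transwell TiO2-control cells. In ZnO-control cells it had 9.77, 10.56, 9.48 and 10.60 in the chip, against 11.16, 11.36, 11.62 and 11.66 on Transwell. The systems did not overlap in either medium, and the chip arrays were spread more widely than the Transwell arrays. The difference was -1.33 (SE 0.17), 2.51-fold lower, with an adjusted p of 1.96e-07. SNORD116-1 differed by -1.69 (SE 0.35), SNORD116-26 by -1.41 (SE 0.24), SNORD116-29 by -1.35 (SE 0.28) and SNORD116-30 by -1.25 (SE 0.29), with the largest of these adjusted p-values at 8.9e-04.

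**Figure D3:**
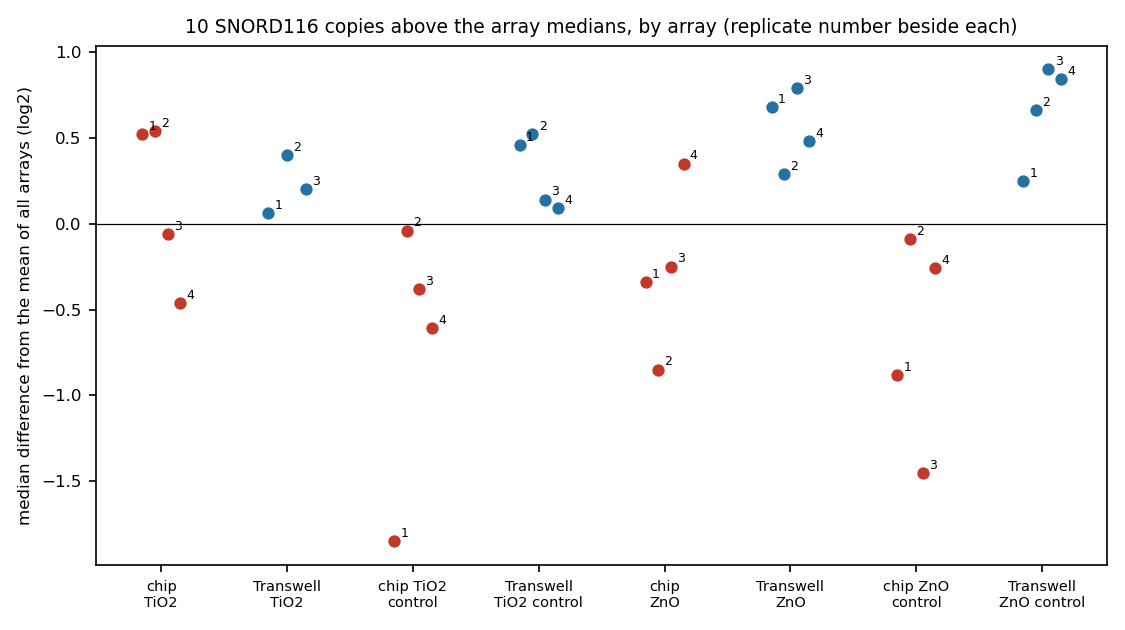
Median difference from the mean of all 31 arrays (log2) over the 10 SNORD116 copies above the array medians, 1 point for each array with its replicate number, in the 8 groups (red chip, blue Transwell). All Transwell points are above 0, between 0.06 and 0.90, while the chip points run between -1.85 (TiO2-control replicate 1) and 0.54 (TiO2 replicate 2).

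Array by array, the median over the 10 brighter SNORD116 copies was at its lowest in chip TiO2-control replicate 1, at -1.85, and in chip ZnO-control replicate 3, at -1.45. In chip TiO2 replicates 1 and 2 it was 0.52 and 0.54, within the Transwell range, and in replicates 3 and 4 it was -0.06 and -0.46, below that range. Chip ZnO replicate 4, at 0.35, was also within it, and chip ZnO replicates 1, 2 and 3, at -0.34, -0.85 and -0.25, were below it. Leaving out any 1 array kept between 10 and 12 lower copies over the control media, between 6 and 10 in the TiO2-control medium, and between 10 and 12 in the ZnO-control medium. After ZnO it kept between 4, without chip ZnO replicate 2, and 7. Leaving out both replicates 4 gave 11 lower copies over the control media and 9 in the TiO2-control medium. The host SNHG14 had no row that named it alone.

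Outside the imprinted clusters 26 of 74 members were lower (35.1%, against 18.9% of all genes) and 10 higher (13.5%, against 14.6%). By mean of all arrays 65 of the 74 lay above the array medians, where a larger share of genes was called, so these shares are not matched for level. SNORD121A, in UBAP2, fell the most, by a difference of -1.71 (SE 0.23, adjusted p = 8.62e-07), 3.26-fold lower. It had 3.06, 4.45, 4.59 and 4.46 in chip and 5.98, 6.17, 5.42 and 5.41 in Transwell TiO2-control cells, and 4.31, 4.16, 3.70 and 4.28 in chip and 4.84, 6.10, 6.52 and 6.23 in Transwell ZnO-control cells. The systems did not overlap. UBAP2 differed by -0.15 (SE 0.06, adjusted p = 0.0492).

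SNORD90, in RC3H2, differed by -1.45 (SE 0.22, adjusted p = 3.4e-06), 2.73-fold lower. It had 3.48, 4.78, 5.21 and 5.50 in chip and 6.27, 5.99, 4.96 and 5.75 in Transwell TiO2-control cells, where the systems overlapped. In the ZnO-control medium it had 5.0, 4.29, 4.96 and 4.54 in the chip and 6.64, 6.47, 6.78 and 6.51 on Transwell, with no overlap. SNORD41, a guide of ribosomal RNA methylation in TNPO2, had 9.57, 9.65, 9.16 and 9.71 in chip and 10.56, 11.22, 10.99 and 10.23 in Transwell TiO2-control cells, and 8.84, 9.60, 9.04 and 9.67 in chip and 10.05, 10.18, 11.03 and 11.05 in Transwell ZnO-control cells. No chip array reached a Transwell array in either medium, and the difference was -1.26 (SE 0.19, adjusted p = 2.87e-06).

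**Figure D4:**
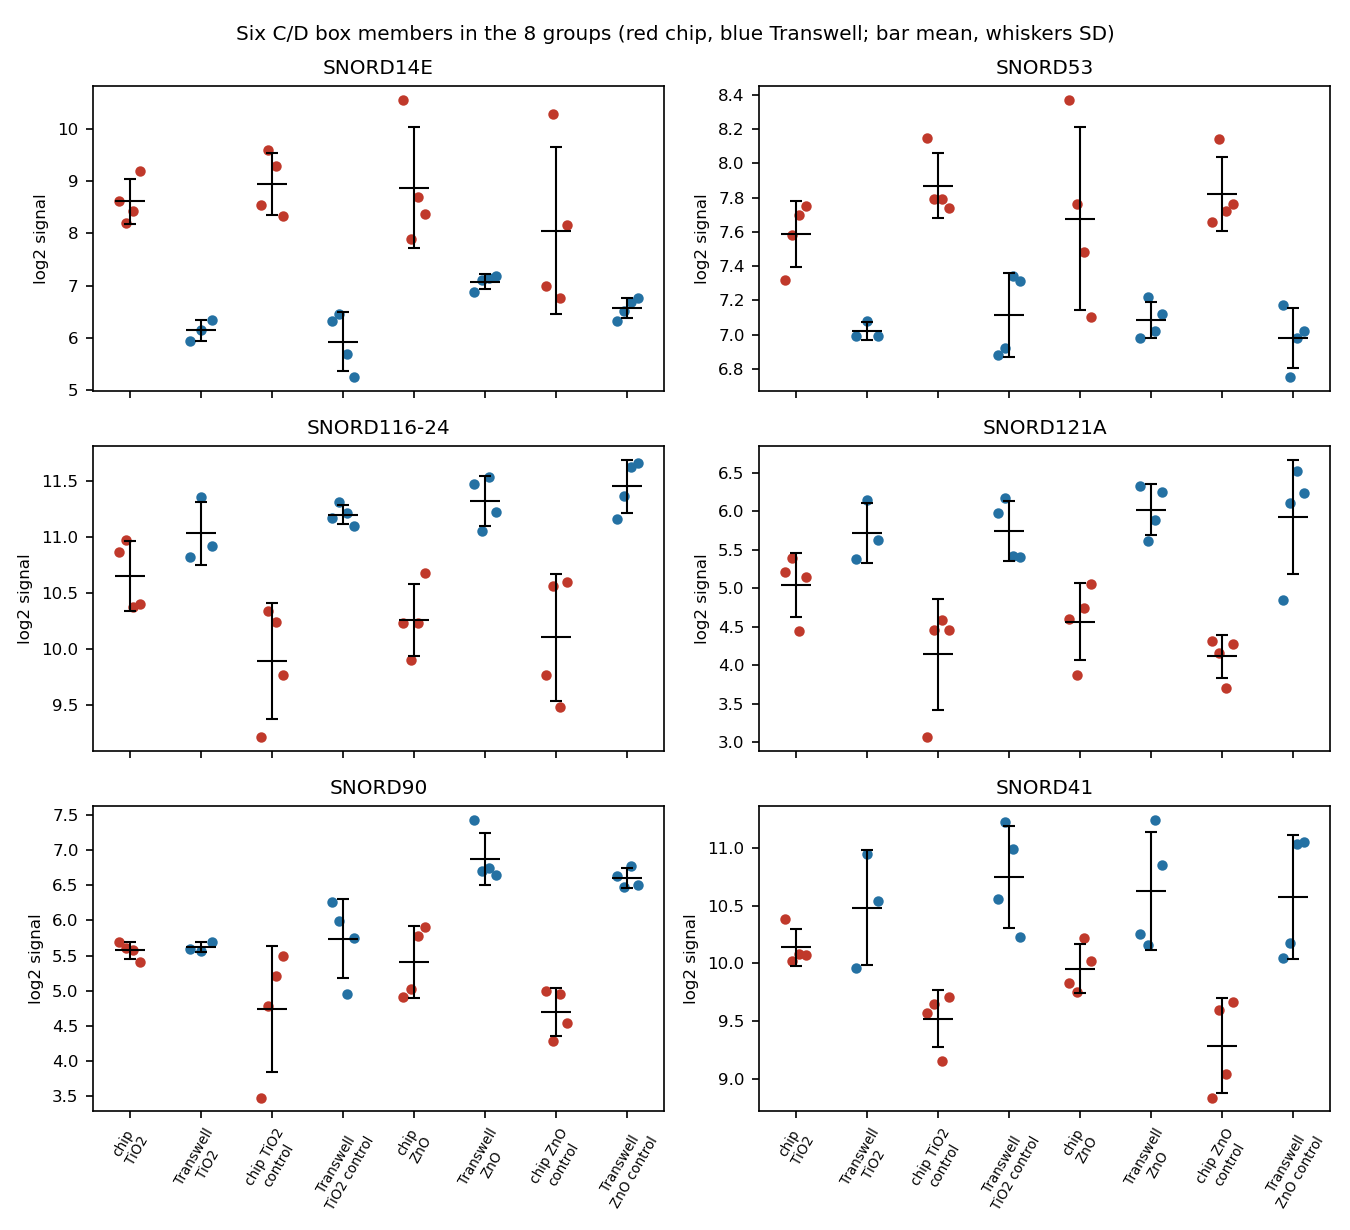
Log2 signal of SNORD14E, SNORD53, SNORD116-24, SNORD121A, SNORD90 and SNORD41 on every array of the 8 groups (points, red chip and blue Transwell), with the mean (bar) and SD (whiskers). SNORD14E and SNORD53 are higher on chip arrays, and the other members are lower in the control media, while in TiO2-exposed cells SNORD90 has 5.41 to 5.70 in the chip and 5.56 to 5.70 on Transwell.

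The remaining falls in bright members were smaller. SNORD69 differed by -0.89 (SE 0.12), SNORD117 by -0.90 (SE 0.12), SNORD63 by -0.91 (SE 0.19), SNORD42A by -0.70 (SE 0.14) and SNORD46 by -0.61 (SE 0.11), all with adjusted p-values of 2.58e-04 or less. SNORD15B, SNORD8 and SNORD71 differed by -0.56, -0.51 and -0.51, and SNORD105B by -0.28 (SE 0.08, adjusted p = 0.0074). Among the 12 brightest members SNORD13, SNORD89 and SNORD32B were not called over the control media.

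By role, most measured guides of U6 methylation were lower over the control media, with more calls in the ZnO-control than in the TiO2-control medium. Of 5 measured of 6 listed, SNORD9, SNORD67, SNORD94 and SNORD8 were lower over the control media, by differences of -0.69 (SE 0.20), -0.52 (SE 0.13), -0.52 (SE 0.10) and -0.51 (SE 0.11). SNORD7 was not called and had 4.40 ± 0.56 in chip and 4.68 ± 0.42 in Transwell TiO2-control cells (SD, n = 4 each). In the ZnO-control medium the same 4 guides were lower, in the TiO2-control medium 1, SNORD8, after ZnO 1, SNORD94, and after TiO2 0 (0 also at an unadjusted p below 0.05). SNORD9, SNORD67 and SNORD94 differed by -0.40 (SE 0.29), -0.14 (SE 0.18) and -0.17 (SE 0.14) in the TiO2-control medium. Of all genes 18.9% were lower over the control media, and 14.9%, 13.5%, 16.5% and 10.2% in these 4 comparisons in turn. All 5 guides lay above the array medians in all 8 groups, where a larger share of genes was called. Without chip ZnO-control replicate 3, 2 guides were lower in the ZnO-control medium, and without chip TiO2-control replicate 1 or Transwell TiO2-control replicate 2 the count in the TiO2-control medium was 0. SNORD94 had 6.54 ± 0.27 in chip and 7.42 ± 0.09 in Transwell ZnO-control cells, and 6.81 ± 0.18 in chip and 6.97 ± 0.11 in Transwell TiO2-control cells (SD, n = 4 each).

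Of 13 listed snoRNAs of precursor processing and acetylation 4 were measured by a row of their own, and over the control media 1, SNORD14E, was called. SNORD14A, a U14 copy in RPS13, differed by 0.23 (SE 0.16, adjusted p = 0.302), and SNORD3C, a U3 copy, by -0.27 (SE 0.17, adjusted p = 0.241). By medium, SNORD3C differed by 0.14 (SE 0.23, adjusted p = 0.753) in the TiO2-control medium and was lower in the ZnO-control medium, at 8.29 ± 0.68 in chip and 8.97 ± 0.27 in Transwell cells (SD, n = 4 each), a difference of -0.68 (SE 0.23, adjusted p = 0.0291). The systems overlapped there, and the call was lost without any of 4 of the 8 arrays. Of the 10 listed snoRNAs in GAS5 introns 2 were measured, and neither SNORD75 (0.31, SE 0.22) nor SNORD78 (-0.07, SE 0.17) was called. The listed snoRNAs of RPL13A (4) and SNHG1 (8) had 0 members with a row of their own. A further 141 rows carried a SNORD symbol together with other genes and 88 SNORD symbols occurred only there, so many well known guides were not analysed here.

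Because a snoRNA cut from an intron comes from the transcript of its host, the host gene was set beside each member. The host was taken as the smallest RefSeq span around the member, without strand, which the table does not give. Of the members 148 lay inside such a span, and 46 outside the imprinted clusters had one of 35 hosts with its own row. Of 16 lower members among them 3 had a lower host, 3 a higher host and 10 a host that was not called. Of 6 higher members 1 had a higher host, 4 a lower host and 1 a host that was not called. The 6 included the pseudogene copies SNORD13P2 and SNORD13P1, and the higher host was FOXK1, around SNORD13P2. Both copies were placed by span only, and whether they come from the transcript of the gene around them was not tested. Of 24 members not called 6 had a lower host, 5 a higher host and 13 a host that was not called. Of all genes 18.9% were lower and 14.6% higher. These counts are of members, so ZFAS1 was counted for both SNORD12B and SNORD12C, and NOP58 for both SNORD11 and SNORD11B.

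ZFAS1, a long non-coding snoRNA host, was higher in chip cells by 0.39 (SE 0.07, adjusted p = 6.9e-05), at 11.17 ± 0.19 in chip and 10.67 ± 0.15 in Transwell TiO2-control cells and at 11.01 ± 0.09 in chip and 10.72 ± 0.03 in Transwell ZnO-control cells (SD, n = 4 each). Its snoRNAs SNORD12B and SNORD12C, guides of ribosomal RNA methylation, were lower by differences of -0.72 (SE 0.18) and -0.35 (SE 0.12), and SNORD12 differed by -0.24 (SE 0.12, adjusted p = 0.141). By medium, SNORD12 differed by 0.07 (SE 0.17, adjusted p = 0.84) in the TiO2-control medium and was lower in the ZnO-control medium, at 8.42 ± 0.38 in chip and 8.97 ± 0.13 in Transwell cells (SD, n = 4 each), a difference of -0.55 (SE 0.17, adjusted p = 0.0157). The systems did not overlap there, and that call was lost without any of 3 of the 8 arrays. The call for SNORD12C was lost without any of 3 control arrays (Transwell TiO2-control replicates 2 or 3, chip ZnO-control replicate 1). GAS5 was higher by 0.54 (SE 0.13, adjusted p = 0.00163), with neither of its measured snoRNAs called. NOP58, which encodes a core protein of every C/D box particle, was lower by a difference of -0.21 (SE 0.07, adjusted p = 0.0175), while SNORD11 and SNORD11B within it were higher. These 2 members were called in the TiO2-control medium (0.96, SE 0.23, and 2.09, SE 0.6) and not in the ZnO-control medium (0.05, SE 0.23, and 0.45, SE 0.6). NOP58 had 10.17 ± 0.12 in chip and 10.28 ± 0.13 in Transwell TiO2-control cells. Its ZnO-control values were 10.26 ± 0.14 in chip and 10.56 ± 0.09 in Transwell cells (SD, n = 4 each). Over both control media CKAP5 was higher by 0.28 (SE 0.07) and its SNORD67 lower. Host and member fell together for SNORD60 and SNHG19 (-0.45 and -0.56), SNORD71 and AP1G1 (-0.51 and -0.29), and SNORD121A and UBAP2, of which the call for SNORD60 was lost without any of 8 of the 16 control arrays.

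**Figure D5:**
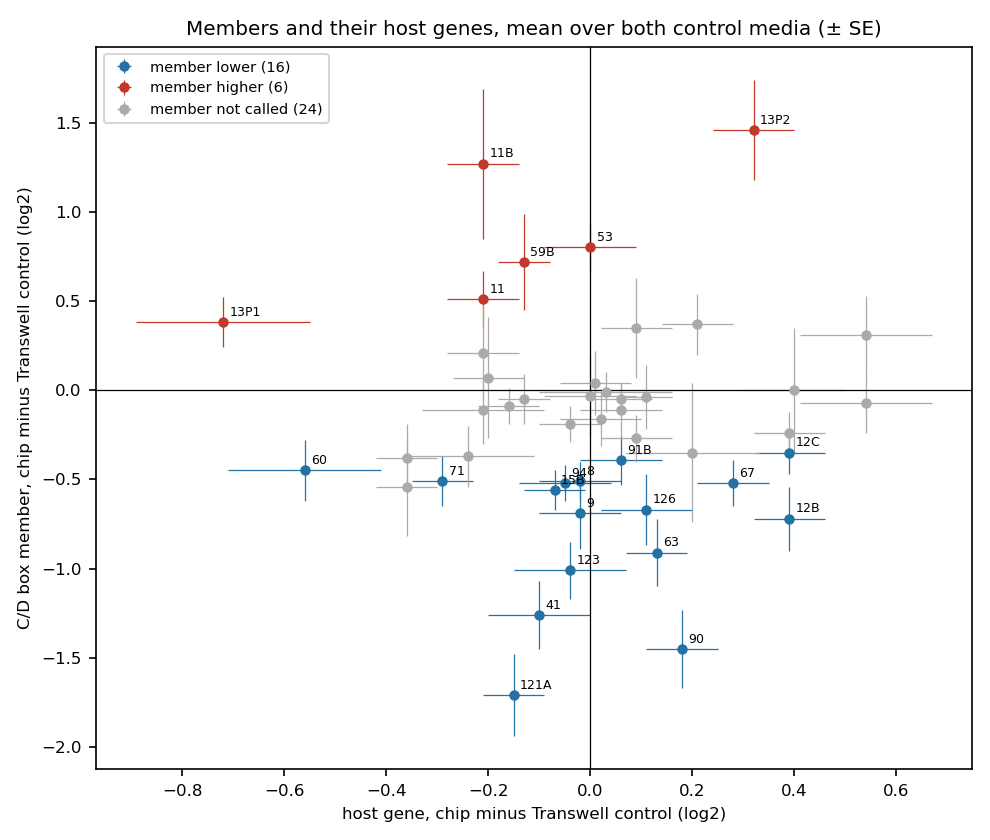
Chip minus Transwell difference over the control media for 46 members (vertical, log2, ± SE) against that of their host genes (horizontal, log2, ± SE), with members lower in blue (16), higher in red (6) and not called in grey (24), and labels giving the SNORD number of called members. The blue and red points lie on both sides of the vertical line, with SNORD12B and SNORD12C at a host difference of 0.39 and SNORD11B at -0.21.

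Members of the same host also parted. In GNL3, which encodes the nucleolar protein nucleostemin, SNORD19 was higher by 1.14 and SNORD69 lower by a difference of -0.89. In RPL23A, SNORD4B was higher by 0.42 and SNORD42A lower by a difference of -0.70. In CHD8 both SNORD8 and SNORD9 were lower, and in PPAN both SNORD105 (-0.56) and SNORD105B. GNL3 and RPL23A had no row that named them alone.

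Of 20 listed proteins of the C/D box particle and its assembly 19 were measured, and over the control media 3 were higher and 10 lower in chip cells (33.5% of all genes were called). All 19 lay above the array medians by mean of all arrays, where a larger share of genes was called. Fibrillarin (FBL), the methyltransferase, was lower by a difference of -0.31 (SE 0.08, adjusted p = 0.00199), and SNU13, which binds the box C/D fold, was higher by 0.36 (SE 0.08, adjusted p = 0.00102). DBR1, which opens the intron lariats from which snoRNAs are released, differed by -0.81 (SE 0.13), and TGS1, which trimethylates the caps of snoRNAs such as U3, by -0.78 (SE 0.09). After ZnO 1 of the 19 was higher and 12 lower in chip cells (29.8% of all genes were called), and after TiO2 1 was higher and 3 lower (18.2% of all genes). NOP56 had no row that named it alone.

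Other short RNA classes were measured on the same arrays. Of 81 H/ACA box and Cajal body RNAs 19 were higher (23.5%, against 14.6% of all genes) and 7 lower (8.64%, against 18.9%) in chip cells over the control media, with a median difference of 0.14. Of 1018 microRNA genes 67 were higher and 35 lower (6.58% and 3.44%), and of 193 genes of RNU, RNY, RN7 and VTRNA names 16 were higher and 3 lower (8.29% and 1.55%), below the shares of all genes in both directions. By mean of all arrays 71 of the 81, 321 of the 1018 and 42 of the 193 lay above the array medians. Calls were more common above them, so the shares of all genes are not matched for level. Whether these classes differ from the C/D box members was not tested.

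Exposure to the nanomaterials changed no member at an adjusted p below 0.05 in limma, in either system. For TiO2 against its control in the chip 0% of all genes were called, and at an unadjusted p below 0.05 there were 39 members, 24.8% against 8.92% of all genes. For TiO2 on Transwell 0% of genes were called and the unadjusted count was 6 members, 3.82% against 2.64%. For ZnO in the chip 0.272% of genes were called, 0.237% higher and 0.0357% lower, and the unadjusted count was 14 members, 8.92% against 9.42%, and for ZnO on Transwell 0% were called and it was 6 members, 3.82% against 3.73%. In chip TiO2 cells 108 members were above and 49 below their control mean, with a median difference of 0.12 for all members and 0.70 for the SNORD116 copies, of which 12 had an unadjusted p below 0.05. The matching count and median over all genes are not given here, so a rise particular to the members cannot be read from these values. The SNORD116 median was 0.84 without both replicates 4, and between 0.45, without chip TiO2-control replicate 1, and 0.85, without chip TiO2 replicate 4, when 1 array was left out.

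SNORD42A came closest to the threshold. It had 10.87, 10.59, 10.34 and 10.61 in chip TiO2 cells, against 9.15, 9.47, 9.33 and 9.91 in chip TiO2-control cells, with no overlap. The difference was 1.13 (SE 0.19, adjusted p = 0.0566), and without both replicates 4 it was 1.28 (SE 0.21, adjusted p = 0.0183), the only member then called. Those replicates were picked for resembling the other group, so a larger difference without them was favoured in advance. The share of all genes called in that setting is not given here. SNORD42A was also called without chip TiO2 replicate 3 or 4 or chip TiO2-control replicate 4, each left out alone. SNORD123 differed by 0.96 (SE 0.23, adjusted p = 0.259), SNORD105 by 0.75 (SE 0.19, adjusted p = 0.31), SNORD116-21 by 1.63 (SE 0.44, adjusted p = 0.312) and the dim SNORD115-38 by 0.70 (SE 0.16, adjusted p = 0.199).

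The smallest p-values in the other exposures belonged to SNORD104 for ZnO in the chip (0.56, SE 0.18, adjusted p = 0.231), with SNORD12, SNORD41, SNORD67 and SNORD116-11 after it, and to the dim SNORD115-10 for TiO2 and SNORD115-48 for ZnO on Transwell. The difference of the TiO2 response between chip and Transwell was past the threshold for 0 members (0% of genes), with 20 at an unadjusted p below 0.05, 12.7% against 5.43% of all genes. SNORD42A had the smallest p there, at a difference of 1.19 (SE 0.28, adjusted p = 0.747). For ZnO it was also 0 members (0.00447% of genes), with 4 at an unadjusted p below 0.05, 2.55% against 6.01%. The TiO2 test is also that of the difference between the chip minus Transwell effects after TiO2 and in TiO2-control medium.

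Between the control media, ZnO-control against TiO2-control, 2 members were higher and none lower on Transwell (6.64% of genes were called, 2.88% higher and 3.76% lower). They were the dim copies SNORD115-30, at 4.21 ± 0.50 in ZnO-control and 2.36 ± 0.53 in TiO2-control cells, with a difference of 1.85 (SE 0.49, adjusted p = 0.0208), and SNORD115-15, at 1.54 ± 0.26 in ZnO-control and 1.01 ± 0.06 in TiO2-control cells (SD, n = 4 each). Without Transwell TiO2-control replicate 3 or 4, or ZnO-control replicate 2, no member was called, and of the 8 arrays only ZnO-control replicate 3 could be left out with the call for SNORD115-15 kept. Of the 5 U6 guides there, SNORD9 differed by 0.92 (SE 0.29, adjusted p = 0.0502) and SNORD94 by 0.45 (SE 0.14, adjusted p = 0.0569). SNORD67 differed by 0.54 (SE 0.18), SNORD8 by 0.36 (SE 0.16) and SNORD7 by 0.01 (SE 0.33), and none of the 5 passed. The median difference over all members in this comparison was between 0.13 and 0.19 when 1 array was left out, and that over all genes is not given here. In the chip 0 members were called (0.058% of genes, 0.0134% higher and 0.0447% lower), with 7 at an unadjusted p below 0.05, 4.46% against 9.69% of all genes.

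SNORD115-30 was also the member called in opposite directions in the culture comparison. It had 1.96, 3.25, 1.58 and 4.32 in chip and 3.81, 4.69, 4.58 and 3.73 in Transwell ZnO-control cells, a difference of -1.43 (SE 0.49, adjusted p = 0.0296). After TiO2 it had 3.74, 4.98, 3.43 and 4.00 in the chip and 2.13, 2.18 and 2.64 on Transwell, a difference of 1.72 (SE 0.53, adjusted p = 0.022). Its calls were lost without any of 4 arrays in the ZnO-control medium and any of 3 after TiO2. The values lie around the array medians, and the difference between these media was not tested.

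Members varied more within chip than within Transwell groups. The median SD within groups was 0.299 in chip and 0.226 in Transwell cells over the 157 members, a ratio of 1.32, near the ratio of 1.36 over all genes. Over the 79 members above the array medians it was 0.365 in chip and 0.26 in Transwell cells, a ratio of 1.4. The ratio was 1.54 over the 14310 genes above them.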

How the data were processed

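The authors deposited log2 signals made with RMA, per the submitters' processing notes, whose version is not given in the sources used here; 100 ng of total RNA was labelled, per the labels' protocols. The table held 53617 rows on 31 arrays with no missing value, and the number of arrays limits the precision. Rows were named through GEO's platform annotation. Of them 23871 named 1 gene, 1842 several and 27904 none, and symbols were updated by gene identifier with RefSeq (GRCh38.p14), which matched 22569 rows and 154 of the 157 members. The brightest row of each symbol gave 22395 genes. The fit, by limma 3.58.1 under R 4.3.3, gave each of the 8 groups its own mean (eBayes, 23 residual degrees of freedom), with p-values adjusted by Benjamini-Hochberg over all genes and a threshold of 0.05, a procedure tested on simulated data. Named are the 12 brightest members, the members just above and below the array medians, the 8 largest rises and 8 largest falls past the threshold in a comparison (or the 5 smallest p-values where fewer than 5 passed), and members of the lists by role and their hosts. Other members were added after their values were seen. Members and lists were chosen with earlier results of these data known. Alternatives are given in the closing section.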

Additional observations from a re-analysis of the deposited data

Results flagged for a closer look

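Among 35 members named for brightness, role or the culture comparison, 13 of 245 member and group pairs had 1 array far from the other 3 of its group. Chance flags about 1 in 20 such groups, which is close to the number seen. Of these, 3 were in chip ZnO replicate 1, where SNORD11B had 6.37 (others 3.88 to 4.21), SNORD59B 8.38 (6.32 to 6.61) and SNORD11 7.47 (6.68 to 6.70). In chip ZnO-control replicate 1, SNORD59B had 6.70 (7.26 to 7.36) and SNORD78 8.53 (8.97 to 9.01). In chip TiO2-control replicate 1, SNORD121A had 3.06 (4.45 to 4.59) and SNORD53 8.15 (7.74 to 7.79). In chip TiO2 replicate 3, SNORD67 had 3.97 (4.76 to 4.76).

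On Transwell, ZnO-control replicate 1 had 5.68 for SNORD116-29 (6.71 to 6.78) and 6.03 for SNORD116-30 (6.32 to 6.37). SNORD69 had 11.25 in Transwell ZnO-control replicate 3 (10.93 to 10.95), SNORD89 had 12.32 in Transwell ZnO replicate 3 (12.17 to 12.19), and SNORD90 had 7.43 in Transwell ZnO replicate 1 (6.65 to 6.74). No difference of an exposure response between chip and Transwell passed the threshold for any member.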

How the results depend on the processing

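The counts of called members over both control media (49), in the TiO2-control medium (28) and ZnO-control medium (42), and after TiO2 (10) and ZnO (21), stayed within 1.5 times under every alternative run; leaving out 1 array gave 43 to 52, 22 to 32, 28 to 44, 7 to 10 and 16 to 25. Deviations from the group means of same-numbered arrays correlated between -0.13 and 0.08 in 38 pairs, 0 of them over 0.1. No pairing by number was seen, which so few arrays in each group cannot exclude. With the replicate block the counts were 48, 29, 40, 10 and 22, and 3 for the control media on Transwell. For TiO2 in the chip the count of 0 became 1 at an adjusted p threshold of 0.1, with an intensity trend and robust prior, with only genes above the array medians, and without both replicates 4, and 0 to 2 without 1 array. For ZnO-control against TiO2-control medium on Transwell the count of 2 became 8 at a threshold of 0.1, 4 with the trend and robust prior, 10 with array weights and 7 with only the groups compared, and 0 to 3 without 1 array. The other comparisons gave 0 called members under all alternatives run. Members above the 75th percentile of every array in all 8 groups numbered 47, against 73 for the median. The median level of the members on each control array differed between chip and Transwell by -0.34 for all members and by 0.12 for those above the array medians, opposite in sign to the median of their own differences. Each group mean rests on 4 arrays (3 in Transwell TiO2), and dim members near or below the array medians are the least certain. No named member changed direction. The cause of these changes was not tested.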
